A study of Mus musculus with 6 samples.

Results

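The 9 genes described here encode the CD3 chains of the T cell receptor complex (Cd3d, Cd3e, Cd3g and Cd247), the coreceptor CD4 (Cd4), the kinases LCK and ZAP-70 (Lck, Zap70) and the adaptors LAT and SLP-76 (Lat, Lcp2). They were picked by gene symbol from a table of 23725 genes, and all 9 were found in it and passed the filter on low counts. RNA was read from regulatory T cells (Tregs, CD4 T cells that restrain immune responses) of lymph nodes, in 3 libraries from MOG KO mice and 3 from WT mice. All mice were C57Bl/6 and had been immunised with myelin oligodendrocyte glycoprotein (MOG), a protein of the myelin sheath that is a self protein in WT mice and is missing from the whole animal in MOG KO mice. Each library was made from RNA of 500 cells. The labels give no age and no sorting gate, and they do not state that each library came from its own mouse. The p-values therefore speak only of the variation among these 6 libraries, which may in part be technical.

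The receptor that recognises antigen has tails too short to signal. It sits in the membrane with CD3 delta, epsilon and gamma and with the zeta chain encoded by Cd247, whose tails carry the tyrosine motifs called ITAMs. LCK, much of it held by the tail of CD4, phosphorylates these motifs, ZAP-70 docks on them and phosphorylates LAT and SLP-76, and the LAT and SLP-76 scaffold passes the signal to calcium, RAS and actin pathways. Tregs need this receptor both for their development in the thymus and for their suppressive function.

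Levels are in reads-per-million (RPM), the counts of a gene scaled to the total of its library. From 10 RPM upwards, a gene counts as present. Total counts were 3450623 to 4361315 in MOG KO libraries and 2717969 to 4472549 in WT libraries, and 3 counts, the most that a gene read 0 times could have, stand for 0.688 to 0.869 RPM in MOG KO and 0.671 to 1.1 RPM in WT. These limits and all counting intervals cover counting error only, since PCR copies were not marked. The labelled cell type was checked with Foxp3, Il2ra, Ctla4 and Ikzf2, which summed to 2108 to 2974 RPM in MOG KO libraries and to 2084 to 3141 RPM in WT libraries. Foxp3, the lineage factor, was present in every library but WT replicate 3, where it had 8.22 RPM. Ctla4 was also lowest there (74.3 RPM), while Ikzf2 was highest there (1294 RPM) and Il2ra (708 RPM) lay inside the range of the other libraries. The CD8 genes Cd8a and Cd8b1 had 0 counts in all 6 libraries, and of 6 NK cell markers 5 had 0 counts and Fcer1g had at most 0.869 RPM in MOG KO and 1.1 RPM in WT. Markers of B cells (6 genes) summed to 0 to 130 RPM in MOG KO and to 2.21 to 206 RPM in WT, almost all of it Cd79b in replicate 2 of each genotype and Ms4a1 in WT replicate 3, with Cd79a and Pax5 at 0 counts throughout. The 7 myeloid markers listed in the table summed to 5.78 to 193 RPM in MOG KO, the top value being Cd68 in replicate 2, and to 6.26 to 21.3 RPM in WT. Pecam1, an endothelial gene that some leukocytes also express, had 461 RPM in MOG KO replicate 1. Globin genes (3) summed to 20.1 to 66.1 RPM in MOG KO and to 68.9 to 151 RPM in WT, and dendritic, mast cell and platelet markers summed to at most 1.74 RPM in MOG KO and 2.58 RPM in WT for each list. The part of these other cells in the values below was not tested. WT replicate 3 stood apart from the other libraries, with 2701 genes present against 3265 to 4440 elsewhere.

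The 4 CD3 chain genes were present in both genotypes at 102 to 448 RPM, apart from 1 library each for Cd3g and Cd247, and each gene had groups that overlapped, while 10.5% of all genes tested had groups that did not. Cd3d, Cd3e and Cd3g lie together within 40056 bases of chromosome 9. On build GRCm38, Cd3g (Entrez 12502) runs from 44969572 to 44980431 on the minus strand, Cd3d (12500) from 44981786 to 44987339 on the plus strand and Cd3e (12501) from 44998740 to 45009627 on the minus strand. Cd3g and Cd3d point away from each other, with 1355 bases between their starts. Cd247 (12503) lies apart, on chromosome 1 from 165788681 to 165877277 on the plus strand.

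The 250 bases before the RefSeq start of each CD3 chain gene are shown as a description of these genes. They are reference sequence, the same for every library, and a link to the levels was not tested. The bases are given 5′ to 3′ in the direction of the gene, from RefSeq on GRCm38.p6. Capitals mark CTTCCT or its reverse complement AGGAAG, a sequence in some of the sites bound by Ets factors and longer than their core GGAA.
Cd3d, chr9:44981536-44981785, plus strand: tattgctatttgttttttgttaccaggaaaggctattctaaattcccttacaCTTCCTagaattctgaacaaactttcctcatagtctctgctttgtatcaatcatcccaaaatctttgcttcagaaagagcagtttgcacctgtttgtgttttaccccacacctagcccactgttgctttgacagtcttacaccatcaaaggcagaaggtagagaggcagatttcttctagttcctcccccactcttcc
Cd3g, chr9:44980432-44980681, minus strand: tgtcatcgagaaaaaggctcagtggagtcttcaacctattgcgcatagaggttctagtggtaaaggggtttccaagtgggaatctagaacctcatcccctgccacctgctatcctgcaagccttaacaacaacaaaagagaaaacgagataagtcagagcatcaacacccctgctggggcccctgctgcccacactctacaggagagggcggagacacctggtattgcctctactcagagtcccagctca
Cd3e, chr9:45009612-45009861, minus strand: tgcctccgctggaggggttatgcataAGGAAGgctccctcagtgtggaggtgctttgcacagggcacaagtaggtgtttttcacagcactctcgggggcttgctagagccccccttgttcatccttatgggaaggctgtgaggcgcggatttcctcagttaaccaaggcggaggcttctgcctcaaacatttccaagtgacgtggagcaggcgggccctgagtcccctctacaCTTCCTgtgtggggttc
Cd247, chr1:165788431-165788680, plus strand: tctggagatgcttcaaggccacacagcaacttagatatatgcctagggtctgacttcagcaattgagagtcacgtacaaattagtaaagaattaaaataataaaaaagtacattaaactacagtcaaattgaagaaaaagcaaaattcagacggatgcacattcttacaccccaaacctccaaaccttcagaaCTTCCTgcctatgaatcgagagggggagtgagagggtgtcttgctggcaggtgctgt
CTTCCT or AGGAAG was in the windows of Cd3d (1 match), Cd3e (2) and Cd247 (1), and 0 matches were in that of Cd3g. The shorter GGAA, and TTCC for the other strand, do occur in the Cd3g window. RefSeq listed 11 windows of 8 of the 9 genes, with Cd4 not among them. Lck and Zap70 had more than 1 window each, so a count of windows is not a count of genes. Of these 11 windows, 9 held CTTCCT or AGGAAG, against 29.5% of 32851 windows of all genes. The E-box CACCTG or CAGGTG was in 6 of the 11 windows and in 17.2% of all, and the Runx core ACCACA or TGTGGT in 2 of the 11 and in 14% of all. Both strands were searched, matches of 2 motifs can share end bases (ACCACA and CACCTG can share CA), and the motifs were chosen with the sequences in view, so these shares are a description.

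Cd3e, whose product pairs with both the delta and the gamma chain, was the most evenly read CD3 gene. It had 330, 346 and 254 RPM in MOG KO replicates 1, 2 and 3 and 448, 282 and 273 RPM in WT replicates 1, 2 and 3. The highest and the lowest library differed 1.76-fold, the groups overlapped, and the log2 fold change (MOG KO minus WT) was -0.16 ± 1.09 (SE, n = 3 per group). Exons of Cd3e overlap those of Gm48719, an antisense gene that has no counts of its own here. Its part in the reads of Cd3e was not tested.

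Cd3d, the delta chain, had 278, 116 and 288 RPM in MOG KO and 102, 149 and 130 RPM in WT. MOG KO replicates 1 and 3 were above all 3 WT libraries and MOG KO replicate 2 was within the WT range. Its log2 fold change was 0.77 ± 1.58 (SE, n = 3 per group), and the 95% interval ran from -2.87 to 4.41.

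Cd3g, the gamma chain, had 272, 177 and 234 RPM in MOG KO and 235, 210 and 1.42 RPM in WT. Of the WT libraries, replicates 1 and 2 lay within the MOG KO range and replicate 3 was near 0, with 5 counts (counting interval 0.46 to 3.31 RPM). In that same library its neighbours Cd3d and Cd3e had 460 and 962 counts. The log2 fold change of 0.62 ± 1.89 (SE) rested on this library and was -0.0054 without it.

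Cd247, the zeta chain, had 1.16, 213 and 384 RPM in MOG KO and 370, 328 and 285 RPM in WT. MOG KO replicate 1 held 5 counts (counting interval 0.375 to 2.7 RPM), MOG KO replicate 2 lay below all WT libraries and MOG KO replicate 3 above them. This gave a log2 fold change of -0.74 ± 1.79 (SE), which was -0.15 without MOG KO replicate 1 and -1.64 without MOG KO replicate 3. An exon of Pou2f1 lies on the opposite strand within Cd247, and without a stated strand setting reads of the pair cannot be told apart. Pou2f1 had at most 0.29 RPM in MOG KO and at most 57.8 RPM in WT, where Cd247 had 285 RPM in the same library.

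**Figure D1:**
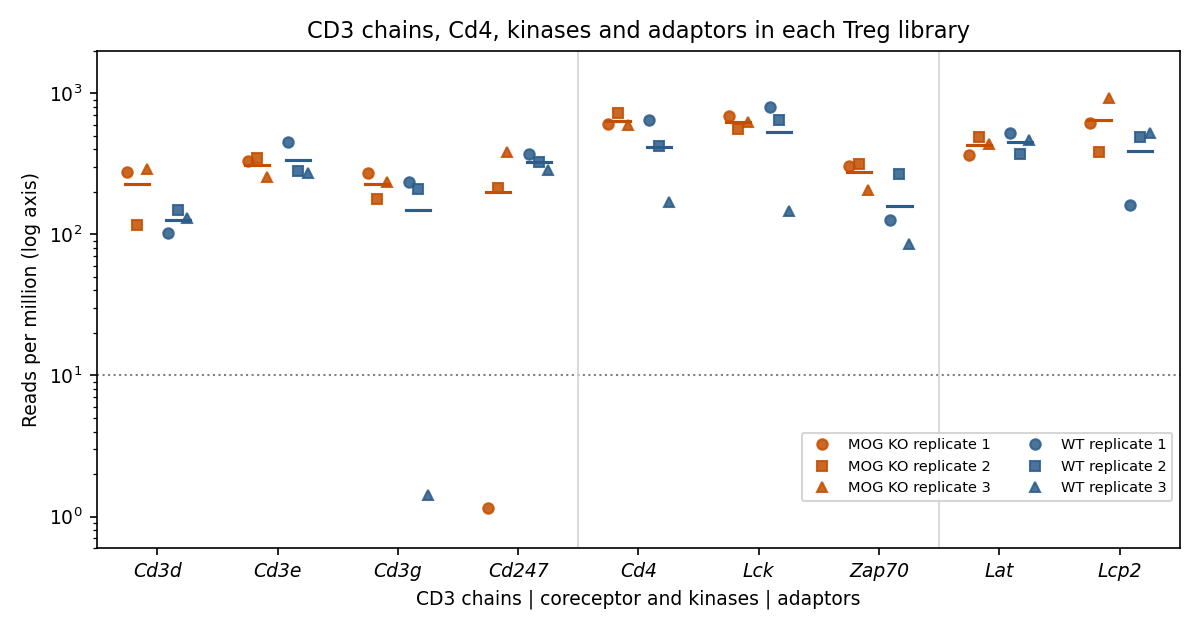
RPM (log axis) of the 9 genes in each library, MOG KO in orange and WT in blue, with the replicate by marker shape, the group mean as a bar and the presence threshold of 10 RPM dotted. Of 54 values, 52 are at 84.8 RPM or more, and the other 2 are Cd247 in MOG KO replicate 1 (1.16 RPM) and Cd3g in WT replicate 3 (1.42 RPM).

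Levels of different genes were compared per kilobase of exon (RPM per kb), with exon lengths of the GENCODE M21 basic transcripts. With these lengths, as shares of the summed RPM per kb of the 4 CD3 chain genes, Cd3e made up 26.2% to 44.7% in MOG KO libraries and 34.3% to 56.3% in WT libraries. Cd3g made up 32.8% to 40% in MOG KO, against 33.7% and 36.5% in WT replicates 1 and 2 and 0.419% in WT replicate 3. Cd3d made up 13.6% to 26.8% in MOG KO and 9.27% to 24.4% in WT. Cd247 made up 0.0382%, 8.86% and 12.7% in MOG KO replicates 1, 2 and 3 and 12% to 18.9% in WT. Cd3g over Cd3d, the pair with divergent starts, ranged from 1.28 to 2.41 in MOG KO, and was 3.64, 2.23 and 0.0172 in WT replicates 1, 2 and 3. The summed level of the 4 genes was 529 to 665 RPM per kb in MOG KO and 680, 562 and 331 RPM per kb in WT replicates 1, 2 and 3, so WT replicate 3 had the lowest sum. Shares and ratios between these genes depend on the exon models. With all GENCODE transcripts, an alternative chosen after the data were seen, Cd3g over Cd3d was 0.542, 0.848 and 0.45 in MOG KO and 1.28, 0.783 and 0.00603 in WT, so it turned to below 1 in all MOG KO libraries and in WT replicate 2. The share of Cd3d was then 26.3% to 48.3% in MOG KO and 18.3% to 37.3% in WT, and WT replicate 3 again had the lowest sum.

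**Figure D2:**
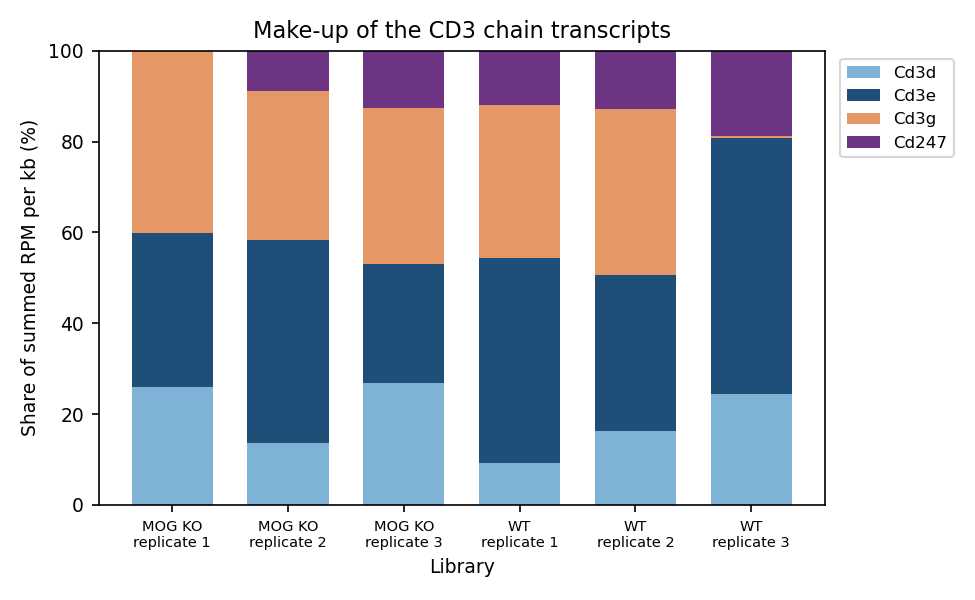
Share of each CD3 chain gene in the summed RPM per kb of the 4 genes (percent, basic exon lengths), 1 bar per library, MOG KO left and WT right. Cd247 is missing from the bar of MOG KO replicate 1 (0.0382%) and Cd3g from that of WT replicate 3 (0.419%), while Cd3d and Cd3e fill part of every bar.

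The coreceptor and both kinases were lowest in WT replicate 3, and 0 of the 3 passed the test between genotypes, as did 0% of all genes tested. Cd4, which encodes the coreceptor that binds MHC class II, had 603, 722 and 592 RPM in MOG KO and 651, 419 and 170 RPM in WT. WT replicate 1 lay inside the MOG KO range and the other WT libraries below it. For Cd4 the log2 fold change came to 0.61 ± 0.67 (SE, 95% interval -0.96 to 2.17), and to 0.22 without WT replicate 3.

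Lck, the kinase that starts the signal, had 690, 559 and 628 RPM in MOG KO and 794, 641 and 146 RPM in WT. WT replicate 1 was above every MOG KO library, WT replicate 2 was inside their range and WT replicate 3 was below it. The log2 fold change was 0.23 ± 0.68 (SE, 95% interval -1.36 to 1.82) and changed sign, to -0.24, without WT replicate 3. The miRNA gene Mir8119, which lies in an exon of Lck on the same strand, had 16.9 RPM in MOG KO replicate 1 and 0 elsewhere.

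Zap70, the kinase that docks on the phosphorylated CD3 and zeta tails, had 305, 318 and 207 RPM in MOG KO and 127, 267 and 84.8 RPM in WT. Of the WT libraries only replicate 2 reached the MOG KO range. Its log2 fold change was 0.77 ± 1.49 (SE, 95% interval -2.67 to 4.21), 0.45 without WT replicate 3 and 1.32 without WT replicate 2. In bulk samples fewer cells of a type and less RNA per cell cannot be told apart, and this holds for each level given here.

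The ratio of Lck to Cd4 was not steadier than the genes themselves once WT replicate 3, low for both, was left out. Lck over Cd4, in RPM per kb, was 1.53, 1.04 and 1.42 in MOG KO and 1.64, 2.05 and 1.16 in WT. The highest and the lowest library differed 1.97-fold with or without WT replicate 3, whereas for Cd4 alone they differed 4.26-fold with it and 1.72-fold without it, and for Lck alone 5.44-fold with it and 1.42-fold without it. Among the 36 pairs of the 9 genes, the SD of the log2 ratio over all 6 libraries was smallest for Cd3e with Lat (0.27) and next for Cd4 with Lck (0.35). Without WT replicate 3 these pairs ranked 4 (0.25) and 7 (0.36), and Cd3g with Lck had the smallest SD (0.17). With so few libraries that share their preparation, these SDs are a description. Cd4 lies on chromosome 6 from 124864692 to 124888221 (Entrez 12504), Lck on chromosome 4 from 129548344 to 129573641 (16818) and Zap70 on chromosome 1 from 36761798 to 36782818 (22637), so the coreceptor and the kinases are unlinked.

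Of the adaptors, Lat did not separate the genotypes and was the most evenly read of the 9 genes, and Lcp2 varied between libraries of both genotypes. Lat, the membrane scaffold that ZAP-70 phosphorylates, had 363, 492 and 437 RPM in MOG KO and 520, 370 and 465 RPM in WT. The highest and the lowest library differed 1.43-fold, and the groups overlapped over most of their range. For Lat the log2 fold change was -0.13 ± 0.72 (SE, 95% interval -1.8 to 1.53). WT replicate 3, low for Cd4, Lck and Zap70, was second highest of the WT libraries for Lat.

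Lcp2, which encodes the cytosolic adaptor SLP-76, had 614, 386 and 926 RPM in MOG KO and 162, 491 and 520 RPM in WT. MOG KO replicates 1 and 3 were above all WT libraries, MOG KO replicate 2 was inside the WT range and WT replicate 1 was lowest. The log2 fold change was 0.64 ± 0.74 (SE, 95% interval -1.08 to 2.35), 0.23 without WT replicate 1 and 0.24 without MOG KO replicate 3. Exons of Lcp2 overlap those of 4930469K13Rik, a protein-coding gene on the opposite strand that has no counts of its own here. Its part in the reads of Lcp2 was not tested. Lat (Entrez 16797) lies on chromosome 7 from 126363824 to 126369570 and Lcp2 (16822) on chromosome 11 from 34046920 to 34092295, and all 9 genes are protein-coding in GENCODE M21.

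None of the 9 genes passed the test between genotypes, and neither did any other gene in edgeR. Over the 4087 genes tested with edgeR's quasi-likelihood test, 0 had a Benjamini-Hochberg adjusted p under 0.05, which is 0% of them, and 209 (5.11%) had an unadjusted p under 0.05. Among the 9 genes 0 had an unadjusted p under 0.05, the smallest being 0.396 for Cd4, and the adjusted p was 0.9996 for each. In DESeq2, which called 744 of the 4677 genes that it gave an adjusted p (15.9%), 271 higher and 473 lower in MOG KO, 0 of the 9 were called and each had an adjusted p of 0.999. In limma on log2(RPM + 1) 0 of 4087 genes were called (0%), and the adjusted p of the 9 genes ran from 0.936 to 0.998. Groups did not overlap for 431 of the 4087 genes (10.5%), with 244 (5.97%) higher and 187 (4.58%) lower in MOG KO, and all 9 genes described here had groups that overlapped.

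The intervals were too wide to show that the genotypes were alike. Of the 9 log2 fold changes, 6 were above 0 and 3 (Cd3e, Cd247 and Lat) below 0, with a median of 0.61, while 52% of all genes tested were above 0 and their median was 0.062. The narrowest 95% interval, that of Cd4, spanned -0.96 to 2.17. The median SE was 1.09 for the 9 genes and 2.42 for all genes tested. The edgeR fit draws on the spread of other genes, so an SE or interval is not the scatter of its own gene alone. Lat had an SE of 0.72 with an SD of log2(RPM + 1) over the 6 libraries of 0.21. For Cd3e these were 1.09 and 0.3, and for Cd247 1.79 and 2.94. The summed RPM of the 9 genes was 3455, 3329 and 3951 in MOG KO and 3408, 3157 and 2075 in WT, a mean of 3578 ± 329 in MOG KO and 2880 ± 708 in WT (SD, n = 3 each). Without WT replicate 3 the WT mean was 3282, and WT replicate 1 lay inside the MOG KO range.

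**Figure D3:**
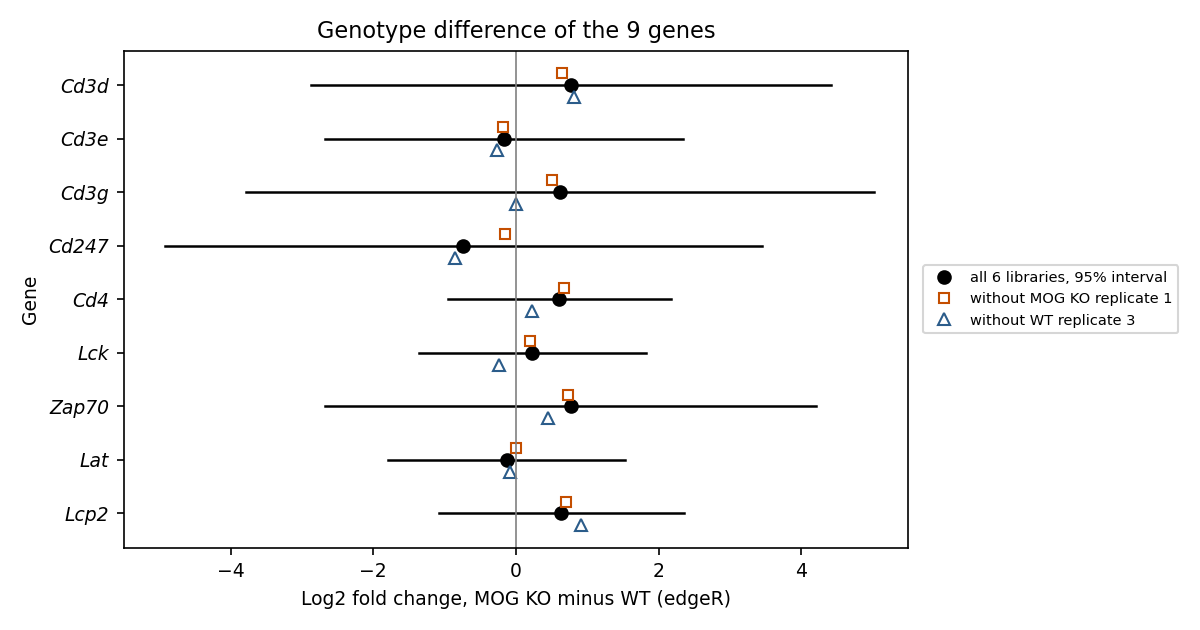
Log2 fold change (MOG KO minus WT, edgeR) of the 9 genes with its 95% interval over all 6 libraries (black), and the value without MOG KO replicate 1 (orange squares) or without WT replicate 3 (blue triangles). Every interval holds 0. Without WT replicate 3, Cd3g moves to -0.0054 and Lck to -0.24, and without MOG KO replicate 1, Cd247 moves to -0.15.

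Per kilobase, Lat had the highest median over the 6 libraries, at 362 RPM per kb, followed by Lck (274), Cd3g (217), Cd3e (209), Cd4 (192), Lcp2 (121), Zap70 (106), Cd3d (86.3) and Cd247 (67.2). Lat ranked first in 5 libraries and Lck in MOG KO replicate 1. By genotype, the level of Lat was 346 ± 52 RPM per kb in MOG KO and 363 ± 60.8 RPM per kb in WT, and that of Lck was 270 ± 28.1 RPM per kb in MOG KO and 227 ± 146 RPM per kb in WT (SD, n = 3 each). Cd247 was 43.8 ± 42.1 RPM per kb in MOG KO and 71.9 ± 9.39 RPM per kb in WT. The ranges of every pair of neighbours in this order overlapped. These ranges pool the libraries and so do not show how steady the order was within each library. The order depends on the exon models. With all GENCODE transcripts in place of the basic set, Lck came first (median 217 RPM per kb), Lat second (163) and Cd247 last (57.5), while Cd3e ranked 7 and Cd3g ranked 8.

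Among genes with a mean of at least 100 RPM, Lat and Cd3e were among the most evenly read, while Cd3g and Cd247 were each near 0 in 1 library. Of 3014 genes with a mean of at least 100 RPM, 650 (21.6%) were present in all 6 libraries, and of the 9 genes, all with such a mean, 7 were. The SD of log2(RPM + 1) over the 6 libraries had a median of 3.49 over these genes and of 0.78 over the 9 genes, and all 9 were under the first value. Most of the 3014 genes were not present in all 6 libraries, which widens their spread. A closer set is the 789 genes with at least 100 RPM in 5 or more libraries, as all 9 had. Of these 789, 385 had at least 100 RPM in all 6 libraries, and of the 9 genes 6 did. Of the 3014 genes, 1.13% were more evenly read than Lat (SD 0.21), 2.75% more than Cd3e (0.3) and 32.9% more than Cd247 (2.94). That share was 9.99% for Cd3d, 11.7% for Zap70, 12% for Cd4, 12.8% for Lcp2, 13.5% for Lck and 26.3% for Cd3g. Only 21.6% of the 3014 genes were present in all 6 libraries, and the SD was not compared within those alone.

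**Figure D4:**
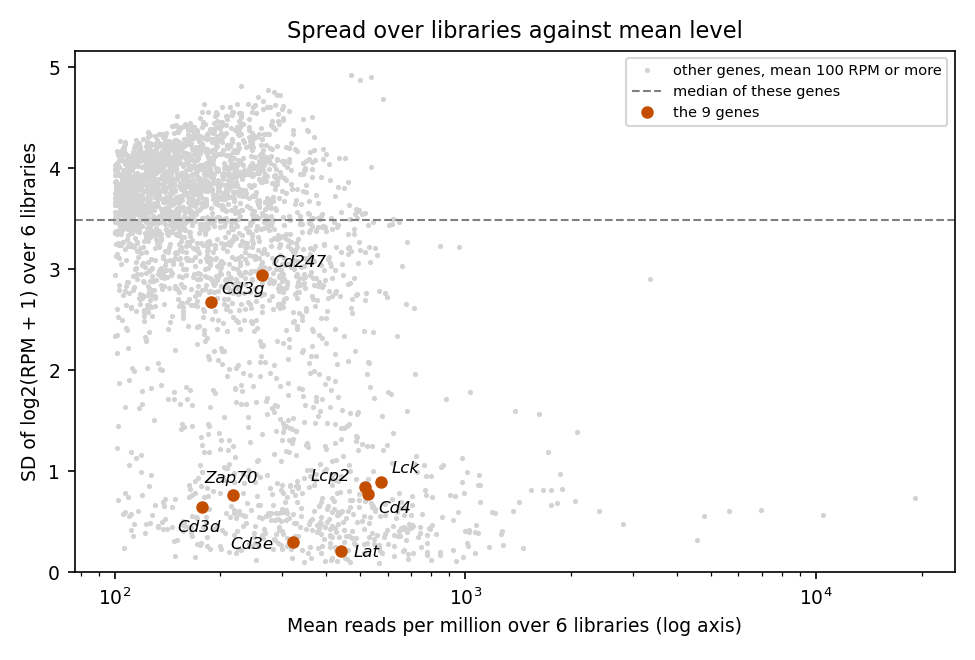
SD of log2(RPM + 1) over the 6 libraries against the mean RPM (log axis) for the 3014 genes with a mean of 100 RPM or more, with the 9 genes in orange and the median SD of 3.49 dashed. Lat (0.21) and Cd3e (0.3) lie near the bottom, Cd3g (2.68) and Cd247 (2.94) lie higher, and most genes lie above all 9.

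Near absence in a single library, as in Cd3g and Cd247, was common in this table. Of 789 genes with at least 100 RPM in 5 or more libraries, 176 (22.3%) had under 3 RPM in the sixth, and the 9 genes gave 2 of 9. MOG KO replicates 1, 2 and 3 were the library with the gap for 27 genes each, and WT replicates 1, 2 and 3 for 8, 10 and 77 genes. Cd3g was thus 1 of 77 genes missing from WT replicate 3 alone and Cd247 1 of 27 missing from MOG KO replicate 1 alone. Of the 9 genes, WT replicate 3 was the lowest library for 4 (Cd3g, Cd4, Lck and Zap70) and the highest for 0.

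Other genes of the same signalling step were listed in 3 groups, chosen with earlier results of these data known. Among 14 receptor and coreceptor partners, all tested, 0 passed in either direction in edgeR (background 0%), 9 were above 0 and 5 below, with a median log2 fold change of 0.060. By smallest unadjusted p these were Lax1, an adaptor of the membrane, with 3.93, 0.229 and 22 RPM in MOG KO and 289, 39.8 and 0.283 RPM in WT, and Pag1, which recruits the kinase CSK, with 248, 2.75 and 164 RPM in MOG KO and 1.1, 87.9 and 1.13 RPM in WT. Both were near 0 in libraries of each genotype.

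Named after their values were seen, the surface receptor genes Cd2, Cd6 and Icos were present in all 6 libraries, as 9 of the 14 partners were. Cd2, an adhesion receptor, had 357, 350 and 414 RPM in MOG KO and 336, 319 and 399 RPM in WT. Icos, a costimulatory receptor, had 987, 975 and 1018 RPM in MOG KO and 916, 822 and 915 RPM in WT. All its MOG KO libraries were above all its WT libraries, as for 5.97% of genes tested. Cd6, a receptor of the same surface family as CD5, had 987, 808 and 734 RPM in MOG KO and 740, 748 and 647 RPM in WT. WT replicate 3 was the lowest library for Cd6 and, of the same 14 genes, also for Ctla4 (74.3 RPM), Cd81 (1.98 RPM) and Sit1 (0 counts), but not for Cd2 or Icos.

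Among the other kinases of this step, 7 of 9 were tested, 0 passed, 4 were above 0 and 3 below (median 0.53). Csk, the kinase that restrains LCK, had 215, 236 and 136 RPM in MOG KO and 6.62, 127 and 1.13 RPM in WT, with all MOG KO libraries above all WT libraries, as for 5.97% of genes tested, and a log2 fold change of 2.14 ± 2.14 (SE). Map4k1, which encodes the kinase HPK1, had 0, 4.13 and 31 RPM in MOG KO and 402, 3.58 and 0 RPM in WT, so a single WT library held most of its reads. Fyn, the LCK relative, named after its values were seen, was present in all 6 libraries at 48.3, 606 and 74.2 RPM in MOG KO and 433, 472 and 244 RPM in WT. Prkd2, also named after its values were seen, had 477, 390 and 489 RPM in MOG KO and 297, 176 and 1.13 RPM in WT. As with Csk, its MOG KO libraries were all above its WT libraries.

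Among adaptors and effectors of the LAT complex, 14 of 21 were tested, 0 passed, 7 were above 0 and 7 below (median -0.24). Fyb, an SLP-76 partner that links to integrins, had 526, 502 and 393 RPM in MOG KO and 642, 702 and 1245 RPM in WT, with all MOG KO libraries below all WT libraries, as for 4.58% of genes tested. Its log2 fold change was -0.96 ± 0.5 (SE), with an adjusted p of 0.9996 in edgeR. Sla2, which encodes an inhibitory adaptor, had 269, 224 and 571 RPM in MOG KO and 162, 0.894 and 0 RPM in WT. Its groups did not overlap either, and its log2 fold change was 2.71 ± 2.59 (SE). Of the adaptors, 5 were present in all 6 libraries (Grb2, Fyb, Vav1, Sh2d2a and Rhoh).

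Nearness to Cd3e was taken as the mean absolute difference of log2(RPM + 1) after each gene's own mean was taken off. The nearest genes were Il2rb, Ltb, Prelid1, Rac2 and Coro1b, out of 4078 genes tested that are not among the 9. This difference was 0.11 for Il2rb and 0.19 for Coro1b. Cd3e itself varied little (SD 0.3), so any evenly read gene gets a small difference, whatever its pattern. Ltb (SD 0.1), Rac2 (SD 0.13) and Lat (SD 0.21) were evenly read, so their nearness does not show a shared pattern. Il2rb and Coro1b (SD 0.35 each) varied slightly more than Cd3e, and whether they share its pattern was not tested. Il2rb, the beta chain of the interleukin 2 receptor, had 814, 785 and 646 RPM in MOG KO and 1018, 506 and 633 RPM in WT. Among the 9 genes the closest to Cd3e was Lat at 0.22, with 15 genes closer, and the farthest was Cd247 at 2.01.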

How the data were processed

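Per the labels' protocols, RNA of 500 cells was copied with the SMARTer V3 kit, amplified by 15 PCR cycles, tagged with NexteraXT and read in single reads of 100 bases. STAR 2.3.1, R 3.2.2 and build mm10 are named, per the submitters' processing notes. The authors deposited a table of raw counts of reads in exons per gene and a table of RPM, and each RPM value equals its count over the column total to within 4.5e-11. The sources used here do not give the gene models, the strand setting or the handling of multi-mapped reads. The 1 row without a symbol (at most 0.00548% of a library) was left out.

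Counts were tested for MOG KO against WT with edgeR 4.0.16 in R 4.3.3 (filterByExpr, TMM, robust quasi-likelihood fit, Benjamini-Hochberg adjustment over 4087 genes, threshold 0.05). The SE is the absolute log2 fold change over the square root of F, and is approximate. It rests on a spread that the fit moderates with that of other genes. DESeq2 1.42.0 and limma 3.58.1 were alternatives, beside other filters, scalings, a replicate block and leaving out each library with the genes tested held. The members and lists were chosen with earlier results of these data known. The 9 genes are named whatever their values, and of each other list the 2 of smallest p, since 0 passed, with others marked as chosen after their values were seen. Same-numbered libraries were not paired by the labels. The fitting step was tested on simulated data. With low spread it called 100% of the genes changed 4-fold and 100% of those changed 64-fold. With the spread of these libraries it called 1% and 19% of them, so a lack of calls does not show a lack of change. The changed genes were drawn from all genes tested, whose median SE was 2.42 against 1.09 for the 9 genes. These shares therefore do not give the rate for the 9 genes. Exon lengths and coordinates are from GENCODE M21 (GRCm38, the assembly that mm10 names), matched by Entrez identifier for all 9 genes.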

Additional observations from a re-analysis of the deposited data

How the results depend on the processing

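Over the 9 genes, 117 values of the log2 fold change were computed under the alternatives. Of these, 113 kept their direction, 4 changed it, and 0 passed the threshold (adjusted p 0.936 to 1 in edgeR, DESeq2 and limma). Leaving out each library in turn gave -0.28 to 0.066 for Cd3e, -0.0054 to 1.05 for Cd3g, -0.24 to 0.597 for Lck and -0.27 to 0.0045 for Lat, which hold the 4 changes of direction, without WT replicate 1 for Cd3e, without WT replicate 3 for Cd3g and Lck and without MOG KO replicate 1 for Lat. The range was -1.64 to -0.15 for Cd247, 0.54 to 1.08 for Cd3d, 0.22 to 1.04 for Cd4, 0.45 to 1.32 for Zap70 and 0.23 to 0.92 for Lcp2. The count of genes called over the whole table was 0 in every edgeR and limma setting run and 744 in DESeq2, and the cause was not tested. Cd3g and Cd247 also moved with the scale, to 2.19 and -2.54 in limma on log2(RPM + 1).

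Deviations of same-numbered libraries from their group means had correlations of -0.023, -0.002 and -0.018 over genes. With gaps in single libraries as common as here, values near 0 cannot show that these libraries had only a number in common. The labels do not say whether they were paired. With the replicate block 0 genes were called, and Cd3g moved to 1.49 and Cd247 to -1.72. The 2 low values, at 5 counts each, were under a presence threshold of 3 RPM and over one of 1 RPM, which put 7 and 9 of the 9 genes in all 6 libraries. Depth limits a count of 0 to 0.671 to 1.1 RPM. Leaving WT replicate 3 out of the ranges and pair ratios, and using all exon lengths for the CD3 chain genes, were alternatives chosen after seeing the data.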
